A study of Mus musculus with 6 samples.

Results

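The mammalian circadian clock was followed through 10 genes, Arntl, Clock, Npas2, Per1, Per2, Per3, Cry1, Nr1d1, Dbp and Ciart, in RNA from orthotopic liver tumors of mice. The members were chosen by gene symbol, and all 10 of them were found once each among the 55536 genes counted. Murine hepatocellular carcinoma (HCC) cells of the HCA-1 line had been implanted under the liver capsule of male C3H mice (C3H/HeNCrNarl in the methods) aged 6 to 8 weeks. The control group held 3 untreated tumors, numbered 5, 6 and 7 in the labels. The GOx-DOX-LGP group held 3 tumors, numbered 1, 2 and 5, of mice given intravenous nanogels that carry glucose oxidase (GOx) and doxorubicin (DOX), a DNA-damaging drug, on days 18, 19 and 20. The labels place the RNA analysis on day 17, before the first of those days, after a circulation time of 3 h, while the methods of the study put the harvest of dosed tumors after the last dose. Neither source gives an hour of day for the harvest. All tumors come from 1 cell line in 1 strain, each library is bulk tissue, and no group received empty nanogels or a single drug.

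The clock is a feedback loop of transcription. BMAL1, the product of Arntl, pairs with CLOCK or NPAS2 and drives genes that carry E-boxes, among them those of the period and cryptochrome proteins, which return to the nucleus and repress the pair. A further loop runs through REV-ERBα, the product of Nr1d1, and the ROR receptors, which repress and drive Arntl through a shared element called RRE, and DBP carries the rhythm to output genes through D-boxes. In mouse liver Arntl and Npas2 are known to peak at nearly the opposite time of day to Nr1d1, Dbp and Ciart, with the Per genes following the latter, while Clock varies little.

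The DNA at the members' start sites was searched for these elements. Windows from 250 bases before to 50 bases after a start site were available from RefSeq (GRCm38.p6) for 9 of the 10 members. The stretches below are those in which a script found CACGTG (E-box), TTATGTAA or TTACGTAA (D-box) or TAGGTCA (core of the RRE) on either strand, shown because the loop is known to act through these elements, with the motif in capitals. The stretch of Ciart at chr3:95882252-95882359 (minus strand) lies upstream of the gene and holds 3 E-boxes. That of Cry1 at chr10:85185094-85185129 (minus strand) is also upstream, and that of Per1 at chr11:69098768-69098803 (plus strand) lies within the gene outside its annotated exons. That of Per3 at chr4:151044801-151044885 (minus strand) is upstream, and that of Arntl at chr7:113207531-113207559 (plus strand) lies in an exon, with the motif 30 bases after a start site.
Ciart: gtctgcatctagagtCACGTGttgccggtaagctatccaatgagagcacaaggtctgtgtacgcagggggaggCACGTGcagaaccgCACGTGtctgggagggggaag
Cry1: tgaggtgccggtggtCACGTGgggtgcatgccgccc
Per1: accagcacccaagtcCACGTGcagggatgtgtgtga
Per3: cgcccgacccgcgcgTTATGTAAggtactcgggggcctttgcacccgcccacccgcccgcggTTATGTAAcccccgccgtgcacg
Arntl: aggcagaaagTAGGTCAgggacggaggtg
Of all 32851 windows in that table, 7.15% held an E-box and 0.0883% held at least 3. A D-box was in 1.06% of them, at least 2 D-boxes in 0.0244%, and the RRE core in 2.61%. Of the 9 members with a window, 5 held one of these motifs in at least 1 window, and Clock, Npas2, Nr1d1 and Dbp held none in theirs. The shares above are per window and per motif, whereas a member had up to 3 windows. The share of all genes with any of these motifs was not calculated, so 5 of 9 has no like background. A match, or its lack, describes these letters in these windows only.

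Library totals ran from 15529940 to 18401178 counts, and the members drew between 2 and 3032 counts in a library. Levels are given as CPM, counts scaled to a common library size with TMM, a method that sets libraries on a common scale by the bulk of their genes, with factors between 0.569 in control 7 and 1.241. On that scale 3 counts, taken as the floor, came to between 0.132 and 0.323 CPM. Controls 6 and 7 stood apart from the other 4 libraries. Over the genes tested, which are not replicates, control 5 had a Pearson's r of 0.73 with control 6 and 0.659 with control 7, but of 0.966 to 0.975 with the GOx-DOX-LGP tumors. The summed level of 12 hepatocyte markers was 758.6, 136021 and 215100 CPM in controls 5, 6 and 7, but only between 1613 and 3900 CPM in the treated tumors. Alb, the gene of serum albumin, measured 352.7, 73804 and 128244 CPM in the controls, against a range of 733.1 to 1893 CPM after treatment. Of the HCC markers, Krt8 and Krt18 were above 313 CPM in every library, while Afp lay between 2.25 and 13.2 CPM and Gpc3 between 0.784 and 2.29 CPM, so that these 2 defining markers were low throughout. None of the marker genes was at 0 in every library. The hepatocyte sum thus differed more among the controls than between control 5 and the treated tumors, and each clock gene is given in every library. Other markers separated the groups, with 4 of 4 endothelial genes lower in every treated tumor than in every control (summed 103.4 to 294.9 against 75.5 to 90.0 CPM), although Pecam1 and Cdh5 overlapped by library totals. Over all genes tested, the groups did not overlap for 8.31% lower and 8.87% higher. Of 6 leukocyte genes, 4 were higher in every treated tumor than in every control (summed 124.2 to 270.9 against 280 to 515.9 CPM). Krt8 was also higher in every treated tumor than in every control, and Gpc3 lower. The sum of 5 proliferation genes was 854.4, 248.1 and 35.8 CPM in controls 5, 6 and 7 and 597.3 to 747.6 CPM in treated tumors. In bulk tissue, fewer cells of a type and less RNA per cell cannot be told apart.

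Between the groups, no clock gene passed the test, and 8 of 10 had a lower estimate in GOx-DOX-LGP tumors. With edgeR's quasi-likelihood test and adjustment over all 15374 genes tested, 0 of the 10 members were called, against 0% of all genes. At an unadjusted p under 0.05 there were 2 members, Nr1d1 and Dbp, both lower, against 14.6% of all genes in that direction, 2.87% in the other and 17.5% in either. The groups did not overlap for 2 members, Nr1d1 and Clock, both lower in treated tumors. Over all genes this held for 8.31% in that direction, 8.87% in the other and 17.2% in either. A negative log2 fold change was found for 48.9% of all genes. The median log2 fold change was -0.76 over the members and 0.02 over all genes tested. DESeq2 called 0 members against 10.5% of genes, and the edgeR exact test 0 against 7.14%. limma voom with quality weights called 7, of which 6 were lower, against 60.2% of genes in either direction and 30.9% lower. Without control 5 edgeR called 4, Per2, Per3, Nr1d1 and Dbp, all lower, against 47.7% of genes in either direction and 25.5% lower. Against shares as wide as these, neither count is a result about the members. With control 5 as the lone control library, 0 members and 0% of all genes were called.

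**Figure D1:**
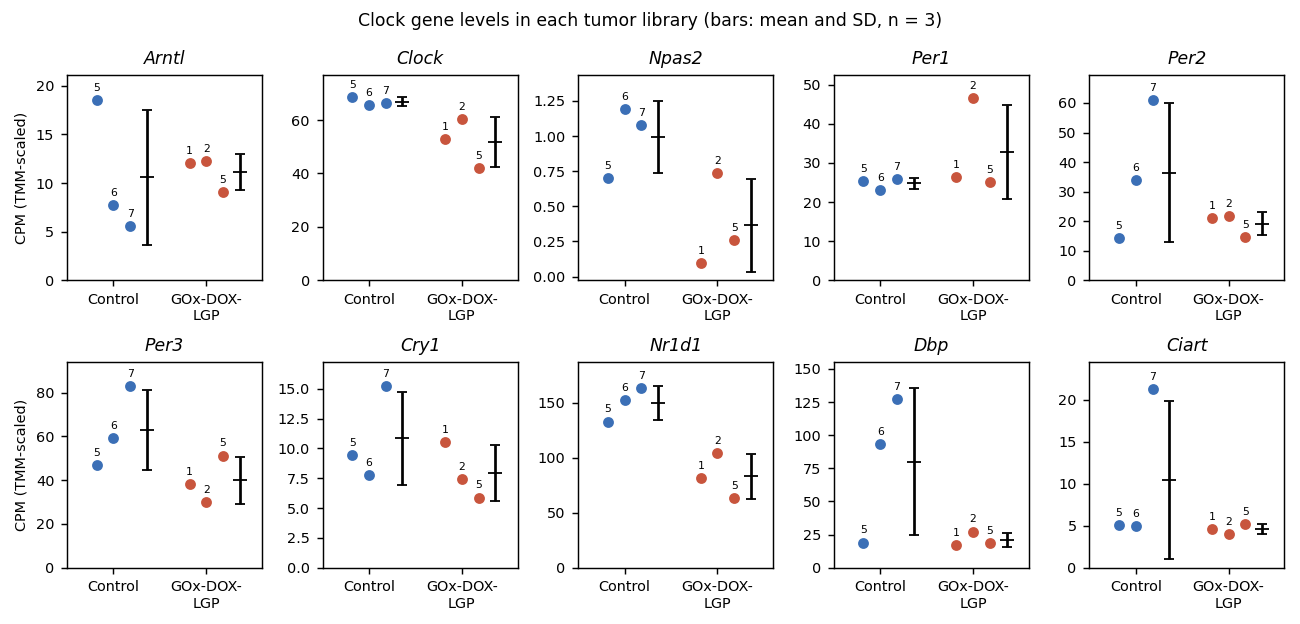
Level of each clock gene (vertical axis, TMM-scaled CPM) in the 3 control (blue) and 3 GOx-DOX-LGP (red) tumors, numbered as in the labels, with the mean and SD (n = 3) as black bars. Nr1d1 and Clock are the 2 members whose groups do not overlap, and the levels of Dbp are high in controls 6 and 7, at 93.0 and 127.5 CPM, and at most 27.3 CPM elsewhere.

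Nr1d1 (ENSMUSG00000020889, chromosome 11, 98767932 to 98775333, GRCm38), which encodes the repressor REV-ERBα, was lower in every treated tumor, though it did not pass the test. It measured 133, 152.2 and 163.7 CPM in controls 5, 6 and 7. In GOx-DOX-LGP tumors 1, 2 and 5 it measured 81.6, 103.9 and 63.4 CPM. Every treated tumor lay below every control, control 5 included. The means were 149.6 ± 15.5 CPM (SD, n = 3) and 82.9 ± 20.3 CPM (SD, n = 3). The log2 fold change was -0.85 (SE, the standard error, 0.26). The edgeR p was 0.0161 unadjusted and 0.247 adjusted, and the DESeq2 adjusted p 0.0563. The endothelial and leukocyte sums separate the groups too, and their part in this difference and in that of Clock was not tested. The estimate was -0.67 with control 5 as the lone control and -0.75 with the mean of the hepatocyte markers as a covariate. Leaving out each library in turn it stayed between -1.03 and -0.64. Scaled by library totals alone it was -0.29 and the groups overlapped, in a scaling where the median of all genes was 0.51, so that Nr1d1 lay 0.80 below that median, against 0.87 with TMM. Thra, the gene of a thyroid hormone receptor, shares 8.55% of the exon bases of Nr1d1 on the opposite strand. Its own levels overlapped between the groups, with 28.6 to 41.1 CPM in controls and 29.9 to 44.3 CPM in treated tumors. The use of strand in counting is not given in the sources used here, so part of the counts of Nr1d1 is uncertain.

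Clock, which encodes the partner of BMAL1 that also acetylates histones, was slightly lower in every treated tumor with TMM, though it did not pass the test. It measured 68.7, 65.8 and 66.3 CPM in controls 5, 6 and 7, against 52.9, 60.4 and 42.1 CPM in treated tumors 1, 2 and 5. On the TMM scale the controls lay within a narrow band and all treated tumors below it. The log2 fold change was -0.37 (SE 0.20, edgeR adjusted p = 0.373). A two-sided exact permutation test gave p = 0.1 for Clock and for Nr1d1, the smallest value that 3 libraries against 3 allow. Groups that do not overlap fix this value in advance, and that held for 17.2% of all genes tested, so the test adds nothing to it. Scaled by library totals, Clock measured 85.2, 49.7 and 37.6 CPM in controls 5, 6 and 7. In treated tumors 1, 2 and 5 it measured 65.4, 73.1 and 52.2 CPM. The groups then overlapped and the estimate for Clock turned to 0.14, which is 0.36 below the median of all genes. Within libraries, where no scaling enters, the log2 ratio of Nr1d1 to Clock counts was 0.95, 1.21 and 1.30 in controls 5, 6 and 7, against 0.62, 0.78 and 0.59 in treated tumors 1, 2 and 5. This ratio did not overlap between the groups, and its mean was 0.49 lower in treated tumors (-0.49). Among the ratios calculated here it was the only one without overlap. It uses the same counts as the levels above, and the share of other gene pairs without overlap was not calculated.

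Npas2 encodes a paralog of CLOCK that also pairs with BMAL1. It was the lowest member, with 16, 14 and 10 counts in controls 5, 6 and 7 and 2, 15 and 5 counts in treated tumors 1, 2 and 5. The 2 counts of tumor 1 are under the floor, and tumor 2 lay above control 5 (0.735 against 0.702 CPM). The log2 fold change was -1.40 (SE 0.71, edgeR adjusted p = 0.349). It was -2.39 without treated tumor 2 (edgeR adjusted p = 0.462) and -0.94 without treated tumor 1 (edgeR adjusted p = 0.618). With limma voom and quality weights it was -2.77 (adjusted p = 0.00446). By library totals it was -0.82, which is 1.32 below the median of all genes in that scaling. The size of the estimate thus depends on these libraries, on the scaling and on the tool.

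Arntl, the gene of BMAL1, had its highest level in control 5, where Dbp and Per2 were low. It measured 18.5, 7.72 and 5.60 CPM in controls 5, 6 and 7, against 12.1, 12.3 and 9.05 CPM in treated tumors 1, 2 and 5. Control 5 was the highest of all libraries and controls 6 and 7 the lowest, with the treated tumors between. The group means, 10.6 ± 6.90 CPM and 11.2 ± 1.82 CPM (SD, n = 3 each), differed by less than the spread between replicates (log2 fold change 0.07, SE 0.48, edgeR adjusted p = 0.942). This near-zero value joins opposite parts, since it was 0.77 without control 5 (edgeR adjusted p = 0.0599) and -0.71 with control 5 as the lone control (edgeR adjusted p = 0.885). It was also below 0 without control 6 (-0.12), without control 7 (-0.24) and with the hepatocyte covariate (-0.39).

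Dbp (ENSMUSG00000059824, chromosome 7, 45705088 to 45710203, GRCm38), an output factor of the clock that was first found on the albumin promoter, had the most negative log2 fold change of the members. It measured 19.0, 93.0 and 127.5 CPM in controls 5, 6 and 7, against 16.8, 27.3 and 18.7 CPM in treated tumors 1, 2 and 5. Control 5 lay among the treated tumors, and the high levels were those of the hepatocyte-rich libraries 6 and 7. The log2 fold change was -1.93 (SE 0.67). The edgeR p was 0.0279 unadjusted and 0.247 adjusted, and the DESeq2 adjusted p 0.063. By library totals the fold change was -1.11, which is 1.62 below the median of all genes in that scaling. It was -2.36 without control 5 (edgeR adjusted p = 0.000417), -0.43 with the hepatocyte covariate and 0.16 with control 5 as the lone control. Sphk2 shares 18% of the exon bases of Dbp on the opposite strand. It measured 17.0, 27.3 and 25.0 CPM in controls 5, 6 and 7, and 15.1 to 17.3 CPM in treated tumors. Controls 6 and 7 were thus its highest libraries, as for Dbp. With the use of strand not given, part of the counts of Dbp is uncertain. Among 9977 genes with a mean of at least 3 on the log2 CPM scale, the 3 whose centred levels lay nearest to those of Dbp over the 6 libraries were Pik3ap1, Zdhhc9 and Insr, with root mean square differences of 0.10, 0.11 and 0.12. The nearest member was Per2, at 0.57. For Arntl the nearest were Tnks, Zfyve16 and Rsbn1, at 0.04, 0.07 and 0.09, and Per1 among members, at 0.56. The nearest member was taken from only 9 genes, so its larger difference does not set Dbp or Arntl apart from the other members.

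**Figure D2:**
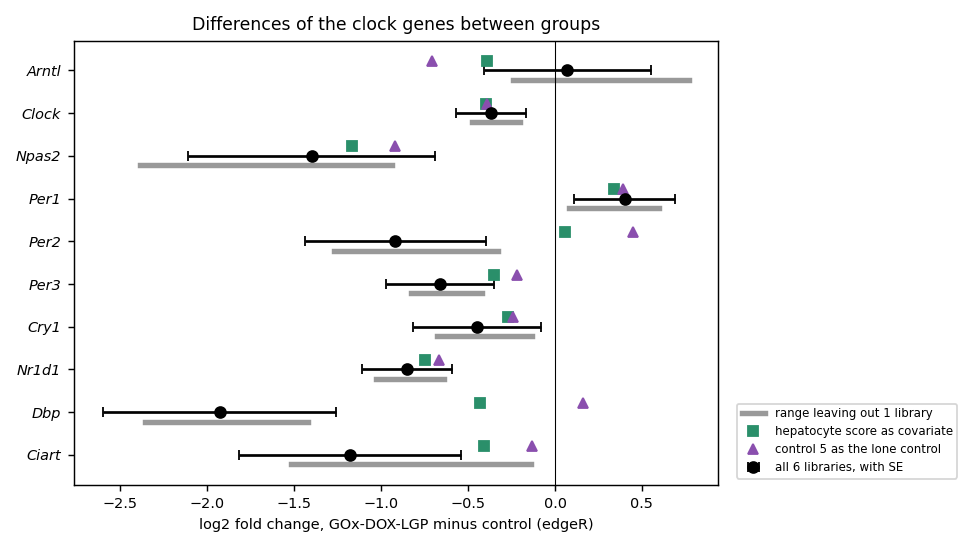
Log2 fold change (horizontal axis, GOx-DOX-LGP minus control) of each clock gene from edgeR over all 6 libraries with its standard error (black), its range when 1 library is left out (gray), with the hepatocyte score as a covariate (green squares) and with control 5 as the lone control (purple triangles). Nr1d1 stays between -1.03 and -0.64 in all of these, while Dbp moves from -1.93 to -0.43 and 0.16.

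The period genes encode the main repressors, and the 3 of them did not share a pattern. Per2 measured 14.2, 34.1 and 60.9 CPM in controls 5, 6 and 7, against 21, 21.9 and 14.7 CPM in treated tumors 1, 2 and 5. Its control 5 was the lowest library, whereas for Dbp control 5 lay among the treated tumors. Its controls 6 and 7 were the highest, as for Dbp. The log2 fold change of Per2 was -0.92 (SE 0.52, edgeR adjusted p = 0.384). By library totals it was -0.14, which is 0.65 below the median of all genes in that scaling. It was -0.33 without control 7, 0.06 with the hepatocyte covariate and 0.45 with control 5 as the lone control.

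Per3 measured 46.8, 59.5 and 82.9 CPM in controls 5, 6 and 7, against 38.4, 30.1 and 51.3 CPM in treated tumors 1, 2 and 5. Only control 5 lay within the treated range (log2 fold change -0.66, SE 0.31, edgeR adjusted p = 0.328). The estimate for Per3 was -0.42 without control 7 and -0.03 by library totals, the latter 0.53 below the median of all genes in that scaling. Per1, the period gene that also answers to glucocorticoids and cAMP, was level in the controls at 25.3, 23.2 and 25.8 CPM. Treated tumors 1 and 5 lay beside them at 26.4 and 25.1 CPM, and tumor 2 stood out at 46.5 CPM. The estimate for Per1 was 0.40 (SE 0.29, edgeR adjusted p = 0.470). By library totals it was 0.92, which is 0.41 above the median of all genes in that scaling. Without tumor 2 the estimate was 0.08, so that it rests on that library.

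Cry1, the cryptochrome that closes the repressive complex, and Ciart, whose product CHRONO represses CLOCK and BMAL1, were both highest in control 7. Cry1 measured 9.48, 7.80 and 15.2 CPM in controls 5, 6 and 7, against 10.5, 7.40 and 5.88 CPM in treated tumors 1, 2 and 5 (log2 fold change -0.45, SE 0.37, edgeR adjusted p = 0.520). The estimate for Cry1 was -0.13 without control 7 and -0.22 without treated tumor 5. By library totals it was 0.15, which is 0.35 below the median of all genes in that scaling. Ciart measured 5.09, 5 and 21.3 CPM in controls 5, 6 and 7, against 4.60, 4.02 and 5.20 CPM in treated tumors 1, 2 and 5. Its log2 fold change of -1.18 (SE 0.64, edgeR adjusted p = 0.369) was -0.14 without control 7, so that the estimate for Ciart rests on that library. By library totals the estimate for Ciart was -0.39, which is 0.89 below the median of all genes in that scaling. Of the stretches of 50 bases in Ciart transcripts, 11.9% also occur in Gm9176, which leaves some of its counts uncertain, whereas the other members share none.

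Per kilobase of exon, Nr1d1 was the highest member and Npas2 the lowest. Mean levels over the 6 libraries were 37.8 CPM per kb for Nr1d1, 16.8 for Dbp, 5.36 for Per3, 5.10 for Per1, 4.75 for Per2, 4.33 for Clock, 3.33 for Ciart, 2.80 for Cry1, 1.45 for Arntl and 0.141 for Npas2. The ranges over libraries overlapped between every pair of neighbors in this order except Arntl and Npas2. The order differed between the groups, since Per1 was at 5.80 CPM per kb in treated tumors, above Per3 at 4.15, but at 4.4 in controls, below Per3, Per2, Clock and Ciart.

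Setting each control against the mean of the treated tumors shows which libraries carry each difference. Control 5 lay within the range of the treated tumors for 6 members, above it for Arntl, Clock and Nr1d1, and below it for Per2. For Nr1d1 all controls were above the treated mean, by 1.6, 1.84 and 1.97 times for controls 5, 6 and 7, and for Clock by 1.33, 1.27 and 1.28 times. For Dbp the same ratios were 0.906, 4.45 and 6.09, and for Per2 0.741, 1.78 and 3.17. The Alb ratios were 0.287, 60 and 104.3. The members thus covered a far narrower range than the hepatocyte markers, whose ratios in controls 6 and 7 ran from 24.5 for Trf to 221.1 for Cps1. The mean log2 CPM of the hepatocyte markers was 12.57 and 13.07 in controls 6 and 7. It was 5.09 in control 5 and 6.24 to 7.48 in treated tumors. As a covariate this mean mostly sets controls 6 and 7 apart, so the group difference then rests largely on control 5. That fit and the fit with control 5 as the lone control are thus not separate checks. The part of liver tissue in the differences of Dbp and Per2 was not tested.

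**Figure D3:**
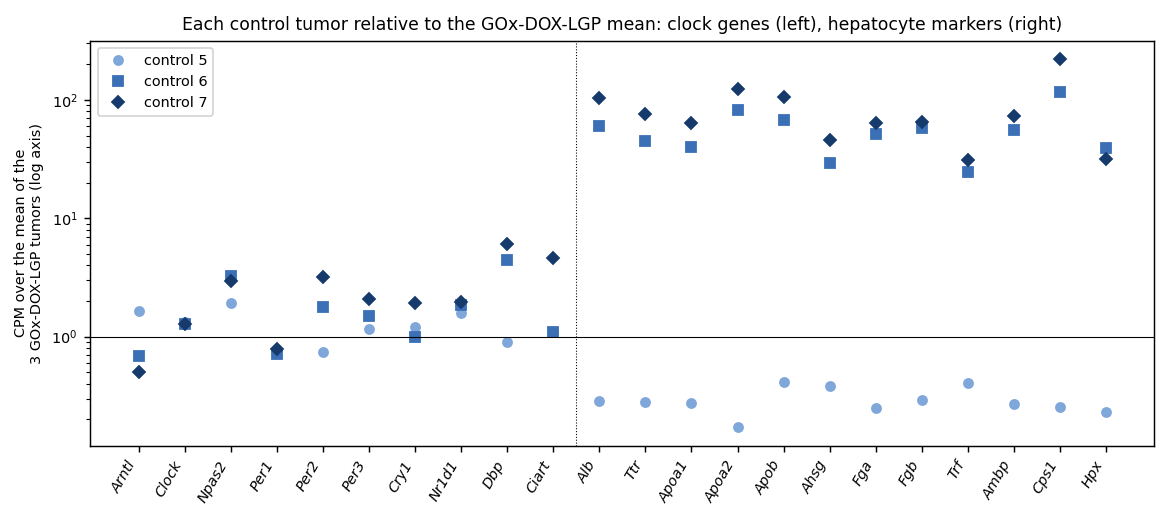
Level of each control tumor over the mean of the 3 GOx-DOX-LGP tumors (vertical log axis, ratio of CPM) for the clock genes (left of the dotted line) and 12 hepatocyte markers (right). Controls 5, 6 and 7 lie close together for Clock and Nr1d1, while for Dbp control 5 is at 0.906 and control 7 at 6.09.

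Controls 6 and 7, both rich in hepatocyte RNA, also differed from each other in clock genes. Ciart was 4.26 times higher in control 7 than in control 6 (exact 95% interval for counting error only, 3.17 to 5.81), Cry1 1.95 times (1.49 to 2.56) and Per2 1.79 times (1.57 to 2.04). Nr1d1 differed by 1.08 times (1.01 to 1.15), Per1 by 1.11 (0.932 to 1.33) and Clock by 1.01 (0.906 to 1.12). Arntl was at 0.726 times (0.506 to 1.03). The 12 hepatocyte markers had ratios from 0.808 to 1.88 with a median of 1.53, the members a median of 1.24 and all genes tested a median of 1.00. Each side is 1 library, so these ratios compare 2 tumors and have no replicate check.

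Ratios within a library do not depend on scaling, and the ratio of day-phase genes to Arntl is a common sign of clock phase. The log2 ratio of Dbp to Arntl counts was 0.04, 3.56 and 4.46 in controls 5, 6 and 7, against 0.47, 1.14 and 1.04 in treated tumors 1, 2 and 5. The controls spanned 4.42 on the log2 scale and the treated tumors 0.67. The difference between group means was -1.80, with SDs of 2.34 and 0.36 (n = 3 each), so that the groups differed by less than the spread between controls. This difference was -3.13 without control 5 and -0.92 without control 7. Control 5 also had the lowest ratio of Per1, Per2, Ciart and Cry1 to Arntl, and control 7 the highest ratio of all 7 genes set against Arntl. All 7 ratios share Arntl, which measured 18.5, 7.72 and 5.60 CPM in controls 5, 6 and 7. The ratio of Per1 thus ran 0.45, 1.57 and 2.16 in these controls, though Per1 itself measured 25.3, 23.2 and 25.8 CPM. The 7 ratios are therefore not separate observations. For Per2 the ratio was -0.38 in control 5, 2.12 and 3.39 in controls 6 and 7, and 0.70 to 0.83 in the treated tumors, a span of 0.13. The ratio of Nr1d1 to Arntl was 2.84 in control 5 and 2.74 to 3.07 in treated tumors, against 4.27 and 4.82 in controls 6 and 7. With no hour of harvest in the sources used here, these ratios could not be set against time of day. Over the controls the ratio of Dbp to Arntl had the order of the hepatocyte sums, but treated tumor 1, with the highest sum of its group, had the lowest ratio. The part of hepatocytes in these ratios was not tested.

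**Figure D4:**
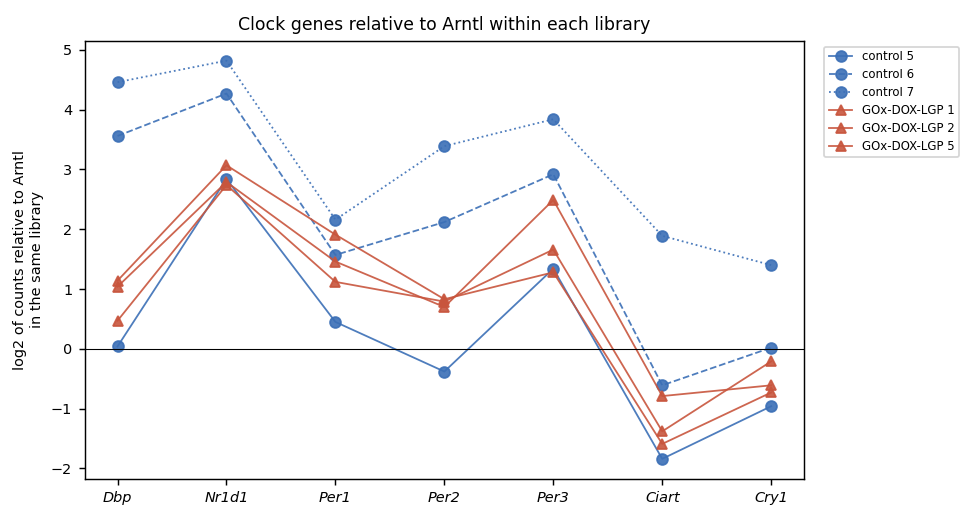
Log2 ratio of the counts of 7 clock genes to those of Arntl in the same library (vertical axis), with lines joining the values of 1 library, controls in blue and GOx-DOX-LGP tumors in red. For Dbp the controls run from 0.04 to 4.46 and the treated tumors from 0.47 to 1.14.

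The other genes of the clock loops were read from a list of 16, all of which were tested. With edgeR 0 of 16 were called and 3 had an unadjusted p under 0.05, all lower, while 7 had a higher and 9 a lower estimate (median log2 fold change -0.35, against 0.02 over all genes). Over all genes 14.6% were lower at that unadjusted p. Without control 5 edgeR called 11, against 47.7% of all genes, and DESeq2 called 2, against 10.5%. The 3 most extreme estimates were those of Hlf and Tef, relatives of Dbp that also bind D-boxes, and of Rora, whose receptor drives Arntl through the RRE. Hlf measured 0.439, 71.7 and 150.3 CPM in controls 5, 6 and 7 and 1.03 to 1.88 CPM in treated tumors (log2 fold change -5.73, SE 1.75, edgeR adjusted p = 0.247, DESeq2 adjusted p = 0.00101). Rora had an estimate of -3.19 (SE 0.97). Tef measured 73.4, 228.5 and 279.7 CPM in controls 5, 6 and 7, against 79.8, 101.9 and 69.6 CPM in treated tumors 1, 2 and 5 (log2 fold change -1.21, SE 0.51, edgeR adjusted p = 0.292). Cry2, a cryptochrome paralog of Cry1, had the same rounded estimate of -1.21 (SE 0.44, edgeR adjusted p = 0.252). As for Dbp, control 5 lay among the treated tumors for Tef, and for Hlf it was the lowest library. With control 5 as the lone control the estimates turned to 1.66 for Hlf, 0.21 for Rora and 0.21 for Tef.

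Nr1d2, which encodes the close paralog REV-ERBβ, is named for its kinship with Nr1d1, after its values were seen. It measured 163.8, 215.6 and 234.9 CPM in controls 5, 6 and 7, against 124.8, 159.1 and 124 CPM in treated tumors 1, 2 and 5. The groups did not overlap, as for Nr1d1, though control 5 lay close above treated tumor 2. The log2 fold change was -0.59 (SE 0.26, edgeR adjusted p = 0.302). By library totals the groups overlapped.

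**Figure D5:**
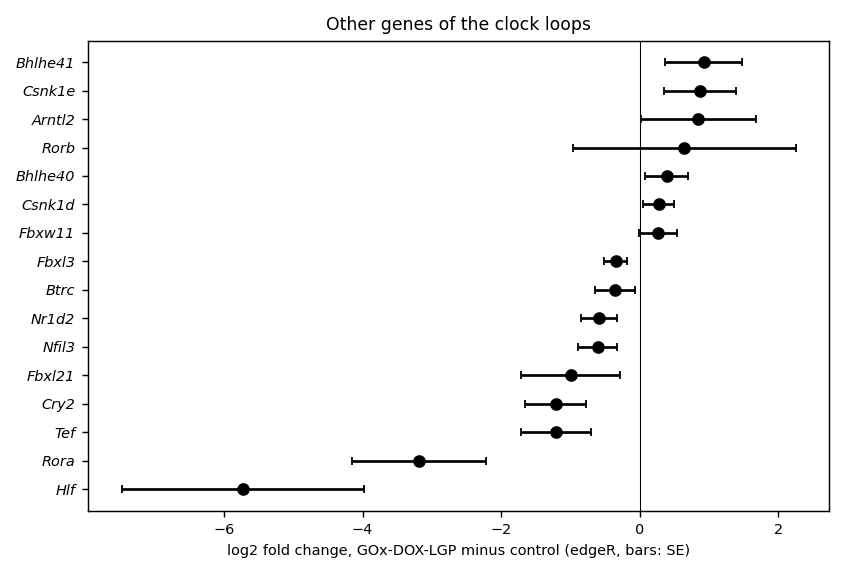
Log2 fold change (horizontal axis, GOx-DOX-LGP minus control, edgeR) with its standard error for 16 other genes of the clock loops. Hlf and Rora lie at -5.73 and -3.19, and the other genes between -1.21 and 0.92.

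Outputs of the clock in liver were read from a list of 15 genes, all tested. With edgeR 0 were called, 7 had an unadjusted p under 0.05, all lower, against 14.6% of all genes, and the median log2 fold change was -1.39. DESeq2 called 6, against 10.5% of all genes, and without control 5 edgeR called 10, against 47.7%. The most extreme were Elovl3 (-7.09), Upp2 (-7.05) and Gys2 (-6.41), which encode a fatty acid elongase, uridine phosphorylase 2 and liver glycogen synthase. Upp2 measured 1.89, 655.6 and 907.8 CPM in controls 5, 6 and 7 and 2.89 to 5.14 CPM in treated tumors, and all 3 estimates were positive with control 5 as the lone control. Pitx3 overlaps Elovl3 on the opposite strand. The median of the list was -0.15 with the hepatocyte covariate.

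Glucocorticoid response genes, read because Per1 shares that input, came to 9, all tested. With edgeR 0 were called and 4 had an unadjusted p under 0.05, all lower, against 14.6% of all genes, with 5 higher estimates and a median of 0.24. DESeq2 called 2, against 10.5% of all genes, and edgeR without control 5 called 6, against 47.7%. The most extreme were Tat (-7.19), a liver enzyme of tyrosine breakdown, Zbtb16 (-3.81), a transcription factor, and Errfi1 (-1.56), an inhibitor of the EGF receptor. Errfi1 measured 191.4, 417.3 and 783.6 CPM in controls 5, 6 and 7, against 190.7, 113.7 and 169.4 CPM in treated tumors 1, 2 and 5. The groups did not overlap, but control 5 was only just above treated tumor 1.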

How the data were processed

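Tumor RNA libraries of 3 control and 3 GOx-DOX-LGP mice were grouped by their labels. The authors deposited raw counts per gene of 55536 genes, and signal values of 34685 genes, which equal those counts once each library is multiplied by its own size factor (0.5321 to 1.3219). Per the methods the reads were aligned with TopHat and counted with HTSeq, whereas the submitters' processing notes list Trimmomatic 0.38, HISAT2 2.1.0 and featureCounts 2.0.0. Genome build and use of strand are not given in the sources used here. Positions are from GENCODE M21 (GRCm38), which holds all 55536 identifiers.

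Counts were analysed in R 4.3.3 with edgeR 4.0.16 (filterByExpr, TMM, quasi-likelihood test, Benjamini-Hochberg threshold 0.05), fitted over all genes tested. The alternatives used DESeq2 1.42.0, limma 3.58.1, other scalings and filters, a covariate and left-out libraries. Standard errors are the log2 fold change over the root of F. The steps were tested on simulated counts. The labels do not say how replicates were taken, so p-values measure the spread between these samples. Intervals and floors cover counting error only.

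The members and lists were chosen with earlier results of these data known. Named genes are the members, the 3 largest absolute log2 fold changes of each further list, the 3 genes nearest to Dbp and to Arntl, Alb, and genes overlapping a member. Cry2, Nr1d2, Krt8, Krt18, Afp, Gpc3, Pecam1, Cdh5, Trf, Cps1, Pitx3 and Gm9176 fall outside this rule and were chosen after their values were seen. 1 gene of the further clock list is not reported here and was left out of its counts.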

Additional observations from a re-analysis of the deposited data

How the results depend on the processing

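Counts of genes called (adjusted p under 0.05) depended on the tool and on control 5. Over all genes, edgeR's quasi-likelihood test called 0, with 2685 at an unadjusted p under 0.05, DESeq2 1739, the edgeR exact test 1098 and limma voom with quality weights 9254. Of the clock members, limma voom called 7 and the other tools 0. Of the other clock genes, DESeq2 called 2, the exact test 2 and limma voom 16. Of the liver outputs these tools called 6, 4 and 11, and of the glucocorticoid response genes 2, 2 and 7. Leaving out each library in turn, the counts ran from 0 to 7745 for all genes, 0 to 4 for the members, 0 to 11 for the other clock genes, 0 to 10 for the liver outputs and 0 to 6 for the glucocorticoid response genes, and every count above 0 was that without control 5. Other scalings, no filter, the covariate and control 5 as the lone control, an alternative chosen after seeing the data, left all of these counts at 0. In that last fit the lone library is assumed to vary like the treated ones.

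Of 150 log2 fold changes of members under alternatives, 129 kept their direction and side of the threshold, 11 passed it in the same direction and 10 changed sign. By library totals the median of all genes was 0.51, and 9 of the 10 members lay below it. Estimates that changed sign in that scaling were Clock (0.14) and Cry1 (0.15), and with limma voom Cry1 (0.11). With the hepatocyte covariate they were Arntl (-0.39) and Per2 (0.06), and Tat (0.23) among the other genes named. Without controls 6 and 7 in turn, Arntl gave -0.12 and -0.24, and over all libraries left out it ran from -0.24 to 0.77. With control 5 as the lone control, Arntl gave -0.71, Per2 0.45, Dbp 0.16, Alb 1.82, Hlf 1.66, Rora 0.21, Tef 0.21, Elovl3 1.91, Upp2 1.08, Gys2 0.91, Tat 2.69 and Zbtb16 0.73. The cause was not tested. The difference in the log2 ratio of Dbp to Arntl ran from -3.13 to -0.92 with libraries left out and was -1.82 with a prior count of 0.5. Npas2 had at most 16 counts in a library. No paired analysis was made, since neither the labels nor the methods link tumors between the groups.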
